A study of Mus musculus with 3 samples.

Results

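Genes of 9 name families of the ubiquitin system were examined in long-read transcript libraries of 3 mouse muscles. A gene was included when its symbol began with Ubr, Ube, Usp, Herc, Klhl, Trim, Fbxo, Fbxl or Fbxw followed by a digit and when it had at least 3 reads in the 3 libraries together. This left 44 of the 307 genes with such names, while 1906 genes of any name reached that minimum. The genes were thus chosen by name and selected on their read counts, so their detection is a description and carries no test. The group is wider than ubiquitin ligases and deubiquitinases, since its Ube2 genes (Ube2b, Ube2f and Ube2d3) encode conjugating enzymes. Just inside the minimum, with 3 reads, were Klhl38, Usp22, Ube2d3, Usp15 and Trim56. Just outside, with 2 reads, were genes that included Fbxo31, Fbxw7, Klhl28 and Usp6nl, the last of which encodes a Rab GTPase-activating protein despite its name.

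The libraries came from male C57BL/6 mice 8 weeks old, marked wt (wild type) in every sample title. No label names a treatment or an altered gene. Each of 3 tissues gave 1 library: heart apex (cardiac), extensor digitorum longus taken whole (EDL, a leg muscle of fast-twitch fibres), and soleus taken whole (a calf muscle rich in slow-twitch fibres). The sources used here do not say how many mice a library holds. The cDNA was size-selected at 5 to 10 kb before PacBio Iso-Seq, a method that reads whole cDNA molecules. A full-length read is 1 sequenced molecule, and a consensus read merges the full-length reads judged to be 1 transcript. Gene values below are consensus reads, given in the order cardiac, EDL, soleus, and also as RPM, in which every library is brought to an equal total. Because no tissue has a second library, each difference is one between libraries. Intervals are 95% intervals and cover counting error only.

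Ubiquitin is passed from an activating enzyme to a conjugating enzyme and is then attached to a target protein by a ligase, which selects the target. Chains of ubiquitin send many proteins to the proteasome, and deubiquitinases such as the Usp enzymes take the tag off again. In muscle the pathway is best known for protein loss during wasting, in which the ligases Fbxo32 (atrogin) and Trim63 (MuRF) are induced, and for the turnover of sarcomere proteins.

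Reads in genes numbered 18302, 19826 and 17459, so 1 read stood for 54.6, 50.4 and 57.3 RPM. The tissue labels matched their markers. Myh6, the cardiac myosin heavy chain, had 2060, 30 and 31 reads, and Neb, the thin-filament protein nebulin of skeletal muscle, had 2, 451 and 249. The 4 fast-twitch fibre markers summed to 21, 608 and 263 reads. The 3 slow-twitch fibre markers summed to 51, 18 and 455, of which Tnnt1 had only 0, 0 and 1. The 4 endothelial markers summed to 58, 41 and 39 reads, with Pecam1 and Cdh5 at 0 in every library, and the 4 blood and immune markers to 19, 16 and 15, with Ptprc and Csf1r at 0 in every library. The 4 matrix and fibroblast markers summed to 110, 70 and 67 reads, with Pdgfra at 0 in every library, and the 2 smooth muscle and pericyte markers to 19, 26 and 22.

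The family genes took nearly the same share of each library. They held 490 cardiac reads, or 2.68% of the library (2.45 to 2.92), 580 EDL reads, or 2.93% (2.70 to 3.17), and 508 soleus reads, or 2.91% (2.67 to 3.17). The 3 intervals overlap. Of the 1578 reads together, 64.8% fell in the Ubr and Usp genes and 41.1% in the 5 most read genes, which were Usp47, Ubr3, Klhl24, Usp9x and Ubr2. All 3 libraries had reads for 40 of the 44 genes.

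Family members with reads mostly had longer transcripts than those without, in libraries selected at 5 to 10 kb. The same comparison over genes of any name is not given here. The longest annotated coding transcript had a median of 6021 nt over the 44 genes, and in 36 of them it reached 5 kb (81.8%). Among the 234 family names with no read, the 217 with an annotated coding transcript had a median of 3015 nt, and 18 (8.29%) reached 5 kb. Short transcripts were read too, such as Ube2b with 15 reads on 1792 nt. The 29 names with 1 or 2 reads lay between, at a median of 4358 nt. By family, reads were found for 5 of 6 Ubr, 3 of 5 Herc, 15 of 59 Usp, 7 of 51 Ube, 5 of 37 Klhl, 5 of 69 Trim and 4 of 37 Fbxo names at the 3-read minimum. None of the 19 Fbxl and 24 Fbxw names reached it.

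**Figure D1:**
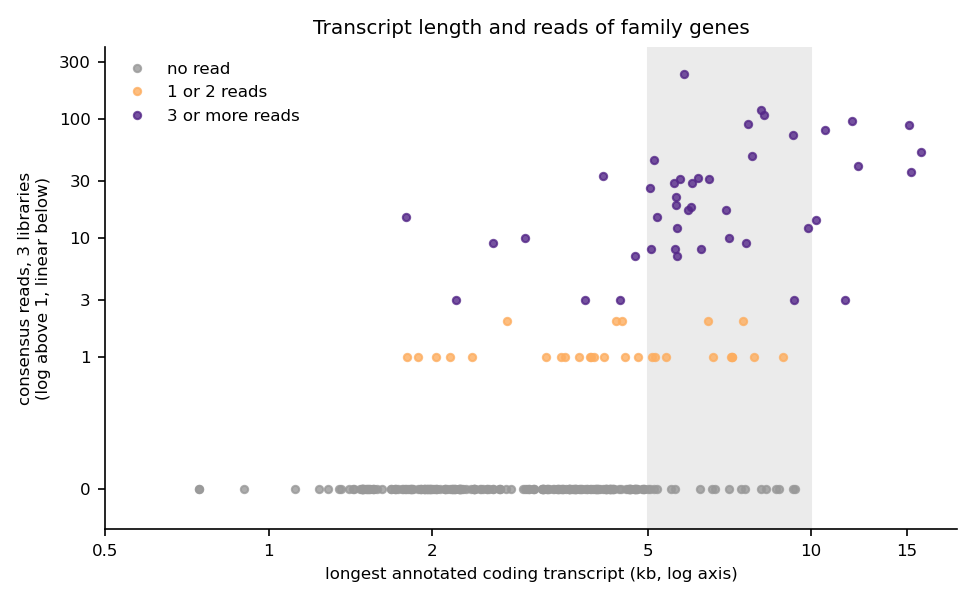
Consensus reads summed over the 3 libraries (vertical, log above 1 and linear below) against the longest annotated coding transcript in kb (horizontal, log), 1 point per family gene, with the selected range of 5 to 10 kb shaded. Genes with 3 or more reads lie mostly at or above 5 kb, with a median of 6021 nt, and genes with no read mostly below it, with a median of 3015 nt.

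Several of the best known muscle ligases were barely read. Trim63, the MuRF ligase of the sarcomere, has a longest coding transcript of 1886 nt and had 0, 0 and 1 reads. Fbxo32, its usual companion in wasting muscle, has a transcript of 6976 nt and had 4, 9 and 4 reads. Trim55, a related sarcomere ligase, had 3, 4 and 2 reads on a transcript of 2595 nt. Klhl40, a stabiliser of thin-filament proteins, had 0, 1 and 0 reads, and its relative Klhl41 had none. Trim54, Trim72, Trim32, Fbxo21, Klhl30, Usp2 and Usp14, with transcripts of 1434 to 4726 nt, also had no read. Klhl33 had no read although its transcript spans 5513 nt. Klhl38 had 0, 0 and 3 reads, and the exact Poisson intervals of the counts of 0 reach 202 RPM in cardiac muscle and 186 RPM in EDL. Fbxl22, a cardiac F-box protein, and Usp19 had 1 cardiac read each and none elsewhere. Fbxo30, an F-box protein of the wasting programme, had 3, 4 and 1 reads. Usp13 had 2, 4 and 3 reads, Ube2b had 7, 6 and 2, Ube3a had 5, 3 and 4, and Ube4b had 4, 6 and 9. Absence from these libraries is not absence from the muscle.

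Across the 3 pairs of libraries, no family gene differed in consensus reads by an amount whose interval lay wholly beyond 2-fold. Among those read 20 or more times in a pair, 0 of 16 passed between cardiac muscle and EDL, where 8.4% of all genes tested passed. None of 17 passed between cardiac muscle and soleus (8.25% of all genes), and none of 18 between EDL and soleus (1.82% of all genes). Under a looser bar, an interval that leaves out equality with at least 10 reads in the pair, 4 of 28 family genes differed between cardiac muscle and EDL, against 18.9% of all genes. The same bar was passed by 3 of 25 between cardiac muscle and soleus, against 18.2% of all genes, and by 0 of 26 between EDL and soleus, against 8.76%. The median log2 ratio over the 21 family genes with at least 20 reads was -0.02 for cardiac over EDL, 0.09 for cardiac over soleus and -0.03 for EDL over soleus. Over all 724 genes read as often it was -0.03, -0.07 and -0.05.

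**Figure D2:**
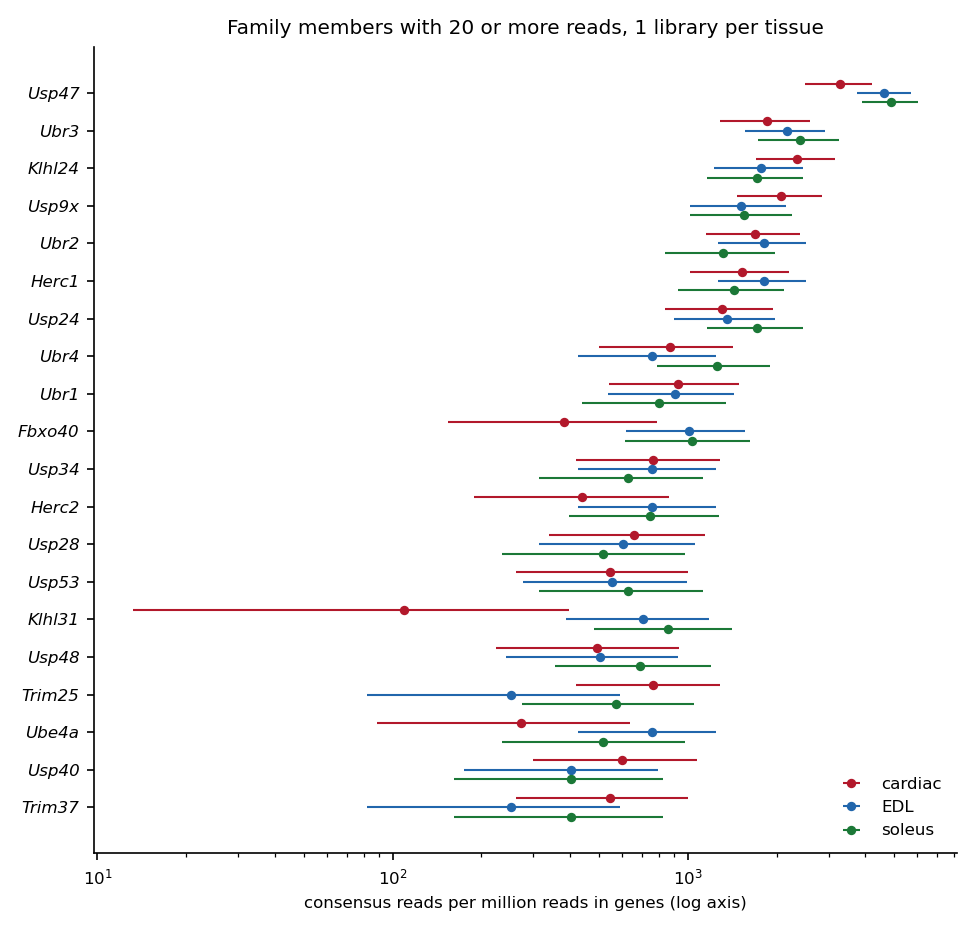
Consensus reads in RPM (horizontal, log) for 20 of the 21 family genes with at least 20 reads, with 1 point per library and exact Poisson 95% intervals as bars. Cardiac, EDL and soleus points of a gene mostly lie within each other's bars, and the cardiac points of Klhl31 (109 RPM) and Fbxo40 (382 RPM) sit to the left of the skeletal ones.

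The genes that passed the looser bar were Klhl31, Fbxo40, Usp47 and Trim25. Klhl31, an adaptor that hands substrates to a cullin ligase and is needed for mouse skeletal muscle structure, had 2, 14 and 15 reads. The cardiac library was the low one and the skeletal libraries were alike. EDL exceeded the heart 6.46-fold (1.48 to 58.6) and soleus exceeded it 7.86-fold (1.83 to 70.9). Counted by full-length reads at its best covered part, these were 10.8-fold and 8.16-fold. Fbxo40, a muscle-restricted F-box protein that targets an insulin receptor substrate, had 7, 20 and 18 reads. It too was lowest in cardiac muscle, and by consensus reads it was nearly equal in the skeletal muscles, with a 2.64-fold excess in EDL over the heart (1.07 to 7.38) and a 2.70-fold excess in soleus (1.07 to 7.64). By full-length reads these ratios were 9.36-fold and 5.19-fold, and EDL exceeded soleus 1.803-fold (1.37 to 2.38). Full-length reads merged into 1 consensus read may not be independent, in which case intervals from full-length reads are too narrow. A consensus read can merge several sequenced molecules, so intervals from consensus reads describe counts of merged reads. Which unit better reflects abundance was not tested. The skeletal muscle markers Neb, Cacna1s and Ryr1, 3 of 3 of which were lower in cardiac muscle, summed to 4, 680 and 371 reads, with Ryr1 at 0 in cardiac muscle. Their part in these results was not tested, and in bulk tissue fewer cells of a type and less RNA per cell cannot be told apart.

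Usp47, a deubiquitinase of beta-catenin and of a DNA repair polymerase, was the most read family gene, with 60, 92 and 85 reads. In RPM these were 3278, 4640 and 4869. EDL exceeded the heart 1.42-fold (1.01 to 1.99), and soleus exceeded it 1.49-fold (1.06 to 2.10). Both calls were lost with median-of-ratios scaling, where the log2 ratio of cardiac over either skeletal library was -0.47 and the interval reached equality, and with totals taken without the 10 most abundant genes. By full-length reads the ratios were 2.32-fold and 2.27-fold. Usp47 was also read deeply in this other unit, with 9.35, 14.5 and 18.96 full-length reads per consensus read at its best covered part, where the median gene had 2.25, 2.36 and 2.22. That placed it 28th of 602, 14th of 632 and 13th of 622 genes.

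Trim25, a ligase of antiviral RNA sensing, had 14, 5 and 10 reads. Cardiac muscle was 3.03-fold above EDL (1.03 to 10.8), while soleus lay between them in consensus reads and differed from neither by this bar. By full-length reads cardiac muscle was 2.12-fold above EDL (1.33 to 3.46) and 2.37-fold above soleus (1.51 to 3.79), and EDL over soleus was 1.12 (0.646 to 1.93). Ube4a, a chain-extending ligase, had 5, 15 and 9 reads, and its 2.77-fold excess in EDL over cardiac muscle had an interval that included equality (0.957 to 9.74). By full-length reads that excess was 6.84-fold. By the looser bar in consensus reads, 8.37% of all genes tested stood higher in the heart than in EDL. In the same unit 10.6% stood higher in EDL than in the heart, and 11.5% stood higher in soleus than in the heart. These are the directions of the calls. No such share is given here for full-length reads.

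**Figure D3:**
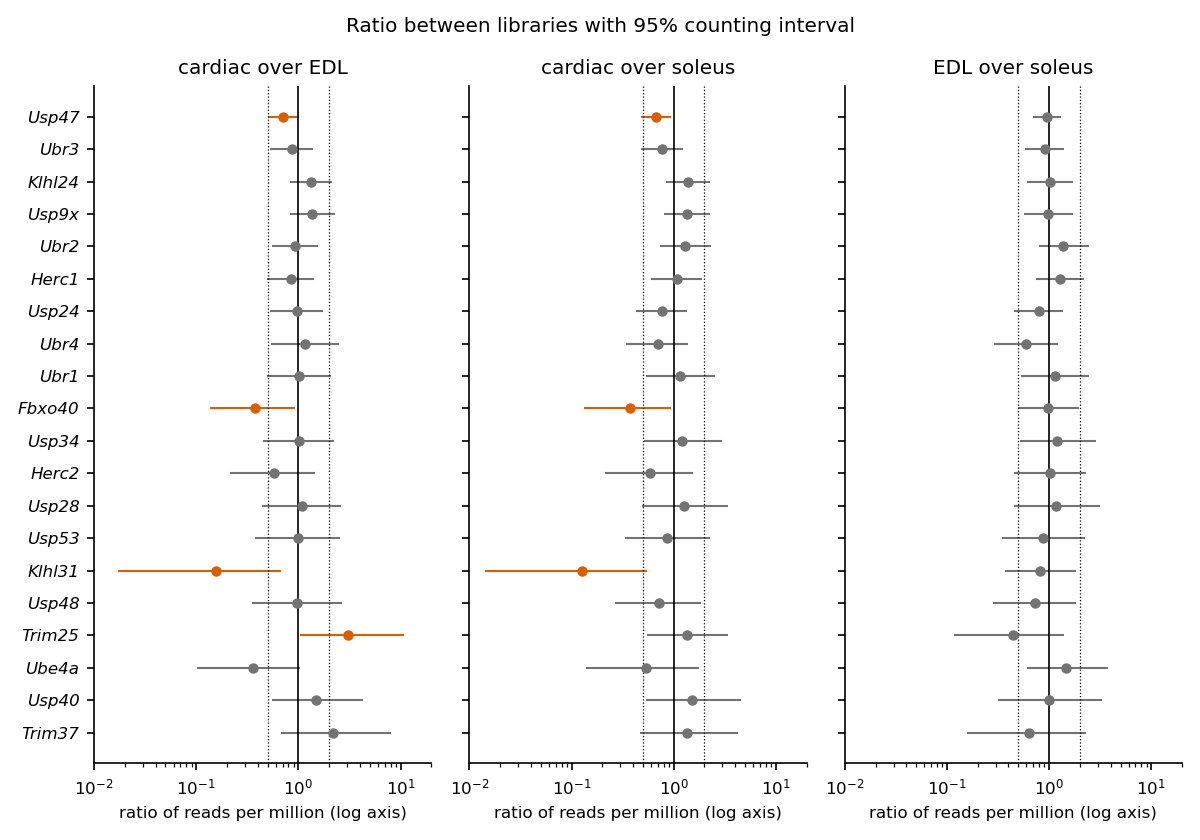
Ratio of RPM between libraries (horizontal, log) for the same 20 genes in the 3 pairs, with exact 95% counting intervals as bars, dotted lines at 2-fold and orange for intervals that leave out 1. Klhl31, Fbxo40 and Usp47 are orange on the low side of both cardiac panels, Trim25 is orange on the high side of cardiac over EDL, and no gene is orange in EDL over soleus.

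The Ubr genes encode large ligases with a shared substrate-binding box, several of which read the first residue of proteins to set their half-life. Ubr3 had 34, 43 and 42 reads, and Ubr2 had 31, 36 and 23. Ubr1 had 17, 18 and 14 reads, and Ubr4 had 16, 15 and 22. In consensus reads none of these passed either bar in any pair, and every interval of their ratios included equality. Full-length reads differed from this. By them Ubr3 was 1.83-fold higher in EDL than in cardiac muscle (cardiac over EDL 0.547, 0.386 to 0.768) and 2.23-fold higher in EDL than in soleus (1.59 to 3.15). EDL over soleus was likewise 2.31-fold for Ubr1 (1.34 to 4.07) and 1.67-fold for Ubr2 (1.17 to 2.40). Ubr1 was also 1.74-fold higher in EDL than in cardiac muscle (cardiac over EDL 0.574, 0.329 to 0.979). The share of all genes whose full-length interval leaves out equality is not given here, so these ratios have no background. Beyond 2-fold, full-length reads called 25.9% of all genes for cardiac with EDL and 14.9% for EDL with soleus.

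Ubr3 also differed in 1 short exonic part, which was called in full-length and in consensus reads. A part of 33 nt that the authors' annotation lacks, at chr2:69971402-69971434 on the plus strand of GRCm38, was held by 28 of 53 full-length reads covering it in cardiac muscle, 99 of 101 in EDL and 53 of 53 in soleus. The shares were 52.8% (38.6 to 66.7), 98.0% (93.03 to 99.8) and 100% (93.3 to 100). In consensus reads it was held by 19 of 33, 42 of 43 and 39 of 39. The skeletal libraries thus nearly always held the part and the cardiac library held it in about as many reads as lacked it. The cardiac share was 45.2 points below that of EDL (cardiac minus EDL, -58.4 to -31.5) and 47.2 points below that of soleus (-60.3 to -32.7). Fisher's exact test of full-length reads gave an adjusted p of 3.33e-10 and 1.21e-07, by Benjamini-Hochberg over all parts tested in the pair. Reads merged into 1 consensus share its exons. With consensus reads alone the differences were 40.1 and 42.4 points and the adjusted p values 0.00108 and 3.83e-04. EDL minus soleus was -1.98 points (-6.93 to 4.93). The skeletal muscle markers given above differ between the same libraries, and their part in this result was not tested.

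The part lies in an intron of 1915 nt between exons 22 and 23 of a 39-exon Ubr3 transcript in GENCODE M21, 168 nt after the first of them and 1714 nt before the second. Both neighbours are coding, the reading frame at the junction falls between codons, and 33 nt would add 11 codons. The letters of the part itself were not used here. The junction it divides is shown because reads without the part join these exons directly, with the end of exon 22 in lower case and the start of exon 23 in capitals.
Ubr3 exon 22 and exon 23: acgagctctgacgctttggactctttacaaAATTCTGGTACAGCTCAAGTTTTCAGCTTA

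A second variable part of Ubr3 did not differ between libraries. It is a 12-nt extension of exon 28 in another Ubr3 transcript, at chr2:69991626-69991637, held by 8 of 34 consensus reads in cardiac muscle, 9 of 43 in EDL and 6 of 42 in soleus. In full-length reads the shares were 22.2%, 13.9% and 14.3%, and the largest difference, 8.36 points, had an interval of -3.75 to 22.2. The extension adds 4 codons without a stop and is in capitals between the bases on either side of it.
Ubr3 exon 28 extension: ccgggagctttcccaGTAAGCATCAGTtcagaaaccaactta
Ubr3 reads also varied at their end. The last 1468 nt of the annotated transcript were covered by 21 of 34, 31 of 43 and 27 of 42 consensus reads, shares of 61.8%, 72.1% and 64.3% with overlapping intervals.

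**Figure D4:**
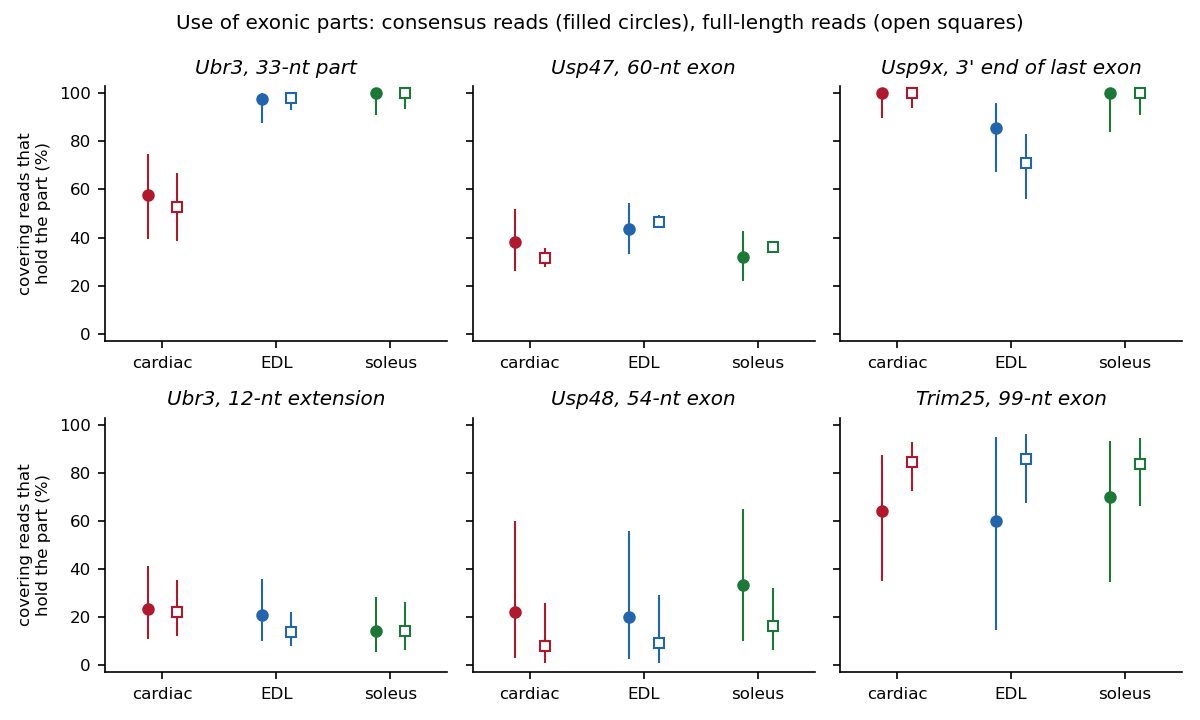
Percent of covering reads that hold each of 6 exonic parts (vertical) in the 3 libraries, for consensus reads (filled circles) and full-length reads (open squares), with exact Clopper-Pearson 95% intervals. The 33-nt part of Ubr3 stands at 52.8% of cardiac full-length reads against 98.0% in EDL and 100% in soleus, the Usp9x end part is lowest in EDL, and the Ubr3 extension and the Usp48 and Trim25 exons have overlapping intervals.

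The Usp genes encode deubiquitinases and were the most numerous family, with 198, 227 and 214 reads from 15 genes. Beside Usp47, Usp9x (a large X-linked enzyme with many substrates) had 38, 30 and 27 reads and Usp24 had 24, 27 and 30. Usp34, a large enzyme of Wnt signalling, had 14, 15 and 11, Usp28, which stabilises several ligase substrates, had 12, 12 and 9, and Usp53 had 10, 11 and 11. Usp48 had 9, 10 and 12 reads and Usp40 had 11, 8 and 7. In consensus reads none of these passed either bar, and their ratios between libraries ran from 0.715 (Usp48, cardiac over soleus) to 1.499 (Usp40, cardiac over soleus). By full-length reads cardiac muscle exceeded EDL 2.52-fold in Usp40 (1.35 to 4.95). Cardiac muscle exceeded soleus 1.802-fold in Usp40 (1.06 to 3.10), 1.88-fold in Usp9x (1.26 to 2.84) and 1.81-fold in Usp28 (1.002 to 3.32). How many genes of any name have a full-length interval that leaves out equality is not given here. These ratios therefore do not set the family genes apart. Beyond 2-fold, full-length reads called 25.9% of all genes for cardiac with EDL and 26.6% for cardiac with soleus.

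Usp47 used 1 cassette exon in a minority of reads in every library. This exon of 60 nt, at chr7:112080172-112080231 on the plus strand, is absent from the authors' annotation but is coding exon 12 of a 29-exon Usp47 transcript in GENCODE M21. It was held by 177 of 561 full-length reads in cardiac muscle (31.6%, 27.7 to 35.6), 619 of 1332 in EDL (46.5%, 43.8 to 49.2) and 580 of 1612 in soleus (35.98%, 33.6 to 38.4). EDL was the highest. EDL exceeded cardiac muscle by 14.9 points (cardiac minus EDL, -19.5 to -10.1, adjusted p = 1.02e-07) and soleus by 10.5 points (6.92 to 14.03, adjusted p = 2.43e-06) by the same Fisher's exact test. Both differences fell short of the 20 points required for a call. By consensus reads the shares were 23 of 60, 40 of 92 and 27 of 85, and the Benjamini-Hochberg adjusted p of Fisher's exact test was 1 in each pair. The exon begins between codons and adds 20 codons without a stop. It is shown in capitals between 15 bases of each neighbouring exon.
Usp47 exon 12: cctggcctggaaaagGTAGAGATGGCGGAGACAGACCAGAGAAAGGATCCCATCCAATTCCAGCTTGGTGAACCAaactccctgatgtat
The last 277 nt of the longest Usp47 transcript were covered by 4, 4 and 2 consensus reads.

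Usp9x differed at its 3' end. The final part of the gene, 3430 nt of the last exon that begin 414 nt after the stop codon, lies at chrX:13169899-13173328. It was held by 57 of 57 covering full-length reads in cardiac muscle, 34 of 48 in EDL and 38 of 38 in soleus. EDL was 29.2 points below each of the others (adjusted p = 2.68e-04 against the heart and 0.0209 against soleus by the same Fisher's exact test and Benjamini-Hochberg adjustment). In consensus reads it was held by 34 of 34, 24 of 28 and 21 of 21, and Fisher's exact test of these made no call (Benjamini-Hochberg adjusted p = 1). In EDL, 7 consensus reads made of 20 full-length reads held a stretch of 3978 nt that starts 6114 nt past the end of the gene and overlaps the annotated pseudogene Gm15027. No cardiac or soleus read covered that stretch. Its length is close to the 3982 nt of the last Usp9x exon, and whether these reads belong to Usp9x was not tested. Its Y-linked copy Usp9y had no read in any library.

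Over all family genes with exonic parts, 2 of 372 parts tested were called between cardiac muscle and EDL, against 2.06% of all parts. Between cardiac muscle and soleus 1 of 412 was called, against 1.21%, and between EDL and soleus 1 of 446, against 0.53%. These are the parts of Ubr3 and Usp9x above. In the authors' deposited table, 163 parts of 6 family genes passed the coverage step, and the Ubr3 and Usp9x parts were the 2 that also passed the difference step and were kept after inspection. Usp47 and Ubr3 had 41 parts each in that step, Ubr2 had 34, Usp24 27, Usp9x 18 and Klhl24 2. Largest differences in Ubr2, Usp24 and Klhl24 were 6.13, 3.33 and 6.41 points, with no call.

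Pooled over the libraries, most exons of these genes were either nearly always or nearly never held. Among the 789 annotated parts with 20 or more covering consensus reads over the 3 libraries, 673 were held by over 90% of reads, 95 by under 10%, and 21 parts of 11 genes by a share between. Usp48 has a cassette exon of 54 nt at chr4:137636934-137636987, exon 20 of 28 in an annotated transcript, that was held by 2 of 9, 2 of 10 and 4 of 12 consensus reads and by 2 of 25, 2 of 22 and 6 of 37 full-length reads. Trim25 has a coding exon of 99 nt at chr11:89015533-89015631 that was held by 9 of 14, 3 of 5 and 7 of 10 consensus reads and by 49 of 58, 24 of 28 and 26 of 31 full-length reads. These proportions did not differ beyond their intervals. Both exons are a whole number of codons long and hold no stop in frame, and are shown in capitals with 15 bases on each side because they change the protein without breaking its frame.
Usp48 exon 20: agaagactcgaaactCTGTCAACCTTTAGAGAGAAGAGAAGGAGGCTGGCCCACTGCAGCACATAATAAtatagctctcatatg
Trim25 exon 6: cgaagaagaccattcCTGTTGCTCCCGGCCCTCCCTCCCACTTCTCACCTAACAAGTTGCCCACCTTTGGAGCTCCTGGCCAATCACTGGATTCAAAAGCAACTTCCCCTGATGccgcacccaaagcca

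Klhl24, an adaptor of a cullin ligase whose mutation causes skin and heart disease in humans, had 43, 35 and 30 reads. In consensus reads cardiac over EDL was 1.33 (0.832 to 2.14) and cardiac over soleus 1.37 (0.838 to 2.26), intervals that include equality. By full-length reads, for which no all-gene share is given, cardiac muscle exceeded EDL 1.52-fold (1.19 to 1.96) and soleus 2.501-fold (1.91 to 3.30). EDL exceeded soleus 1.65-fold (1.22 to 2.22) in Klhl24 by the same reads. A non-coding exon of 63 nt near its start was held by 8 of 16, 8 of 16 and 6 of 12 consensus reads, an equal split in every library, and by 22 of 39, 25 of 49 and 18 of 36 full-length reads. Fbxo40 has a 28-nt coding exon, at chr16:36978749-36978776, that was held by 6 of 7, 16 of 19 and 16 of 18 consensus reads and by 13 of 14, 125 of 133 and 90 of 92 full-length reads. Trim37, a ligase of peroxisomes and centrosomes, had 10, 5 and 7 reads and used its parts too shallowly for a test. Its consensus ratios included equality in every pair. By full-length reads cardiac muscle exceeded EDL 1.87-fold (1.001 to 3.59) and soleus 2.62-fold (1.37 to 5.22) in Trim37, again without an all-gene share.

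The giant genes were read in pieces. Ubr4, a ligase with a longest transcript of 15928 nt, was covered at 0.5 or more of its maximum only over the last 6681 nt in cardiac muscle and the last 6321 nt in EDL and in soleus. Herc2, a giant ligase of DNA repair, has a transcript of 15261 nt and had 8, 15 and 13 reads, which reached 6120, 5707 and 5885 nt from the end by the same measure. Usp34, with 12200 nt, reached 7756, 7261 and 6844 nt, and Usp9x, with 11887 nt, reached 8230, 7699 and 8230 nt. In contrast Usp47, Fbxo40, Klhl31, Trim25 and Trim37, with transcripts of 5137 to 6494 nt, reached their 5' end by this measure in every library. Few or no reads covered the 5' portions of Ubr4, Herc2, Usp34 and Usp9x, so exon use there was poorly measured. A coding exon of 241 nt in Usp9x, 8632 nt from the end, was held by 7 of 12, 3 of 7 and 4 of 8 consensus reads. In full-length reads at its best covered part, Herc2 had a ratio of cardiac over EDL of 0.418 (0.170 to 0.946), on 9 against 22 reads. In consensus reads the ratio was 0.578 with an interval that included equality (0.212 to 1.45). The share of all genes whose full-length interval leaves out equality is not given here.

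Herc1, a giant ligase of membrane traffic, departed from this pattern. Its 28, 36 and 25 reads fell in a pair of blocks, one at each end of a 15153-nt transcript, with as few as 1, 3 and 2 reads between them. The block at the 3' end was covered by up to 13, 15 and 18 reads and the block at the 5' end by up to 15, 21 and 7, and these sums equal the gene's reads in each library. The 5' block held 53.6% of reads in cardiac muscle (33.9 to 72.5), 58.3% in EDL (40.8 to 74.5) and 28% in soleus (12.1 to 49.4). Soleus was the lowest and the intervals overlap. The best covered part by full-length reads lies in the 5' block, so full-length ratios of Herc1 describe that block. By them cardiac muscle exceeded soleus 4.54-fold (2.35 to 9.45) and EDL exceeded soleus 6.81-fold (3.65 to 13.8). Cardiac over EDL was 0.666 (0.443 to 0.993). These rest on 43, 66 and 12 full-length reads, and no such ratio is given for the 3' block. Beyond 2-fold, full-length reads called 26.6% of all genes for cardiac with soleus and 14.9% for EDL with soleus. In consensus reads of the whole gene every interval included equality. Cardiac over soleus was 1.07 (0.601 to 1.91) and EDL over soleus 1.27 (0.740 to 2.20). The division into blocks was made after the profile was seen, and no test was run on it. Herc1 exons overlap those of Fbxl22, a gene with 1 read.

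**Figure D5:**
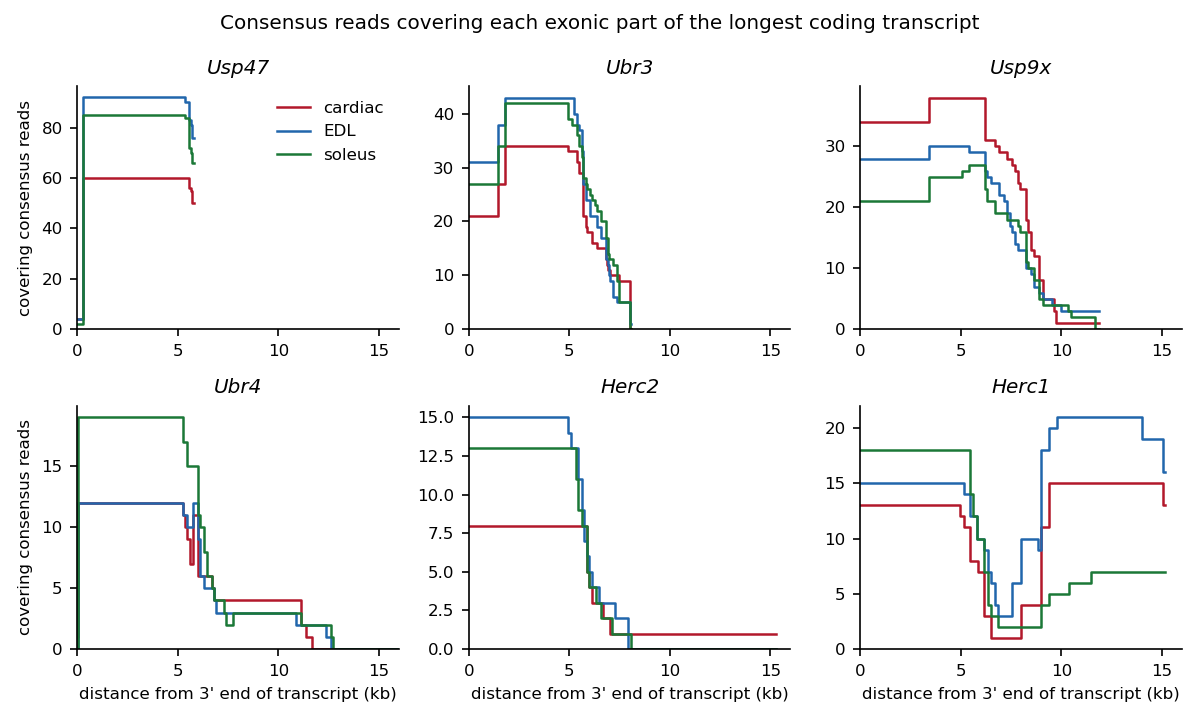
Consensus reads covering each exonic part (vertical) against distance from the 3' end of the longest coding transcript in kb (horizontal) for 6 family genes, 1 line per library. Usp47 is covered along nearly all of its 5816 nt, Ubr3 and Usp9x thin out toward the 5' end, Ubr4 and Herc2 fall steeply near 6 kb, and Herc1 shows a block of reads at each end.

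Some unannotated parts assigned to these genes lie in a neighbour. Of 42 unannotated parts in 13 family genes, 20 were assigned to Ubr4 and all 20 fall in exons of Emc1, a membrane protein insertase subunit on the same strand that shares the first Ubr4 exon. These parts were covered by up to 7, 8 and 5 reads, the first Ubr4 part by 7, 7 and 3, and later Ubr4 parts by up to 12, 12 and 19, while Emc1 was given 0, 1 and 2 reads of its own. How many Ubr4 reads come from Emc1 was not tested, and the Ubr4 ratios are uncertain. A further 13 unannotated parts were intronic, and 11 of the 42 were held by a single consensus read. Exons of 14 of the 44 genes overlap exons of some other gene, and in 5 genes that other gene is coding.

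Among other genes of the pathway, taken from a list of 84 (83 in the table), 22 had at least 20 reads and 37 had none. None was beyond 2-fold among the 17, 17 and 16 tested in the pairs cardiac and EDL, cardiac and soleus, and EDL and soleus. Of all genes tested in these pairs, 8.4%, 8.25% and 1.82% were. By the looser bar 2 of 25 pathway genes were higher in EDL than in cardiac muscle, where 10.6% of all genes tested were. These were Wwp1, a HECT ligase, with 18, 55 and 37 reads and a ratio of 2.82-fold (1.63 to 5.10), and Mib1, a ligase of Notch signalling, with 10, 33 and 15 reads and a ratio of 3.05-fold (1.47 to 6.93). Between cardiac muscle and soleus, of 24 tested, Wwp1 was 2.15-fold higher in soleus (1.196 to 4.02) and Obsl1, a cytoskeletal adaptor that binds a cullin ligase, was 11.4-fold higher in cardiac muscle (1.69 to 489) on 12 reads against 1, where 11.5% of all genes stood higher in soleus and 6.69% in cardiac muscle. EDL exceeded soleus, of 24 tested, in March6 (62, 77 and 41 reads, 1.65-fold, 1.12 to 2.48), Mib1 (1.94-fold, 1.02 to 3.84) and Obsl1 (11 reads against 1), where 3.71% of all genes stood higher in EDL. The ligases Trip12 (40, 50 and 45 reads), Nedd4 (41, 39 and 51) and Mycbp2 (16, 14 and 18) and the proteasome activator Psme4 (41, 29 and 23) passed in no pair. Nor did Cul5 (23, 24 and 21), Cand2 (17, 16 and 17), Otud7b (13, 21 and 16), Otud4 (21, 13 and 13), Traf6 (11, 18 and 17) and Kbtbd2 (12, 13 and 10). Huwe1 (7, 10 and 16), Mdm4 (8, 11 and 13), Itch (11, 12 and 6), Cul7 (13, 6 and 8), Cyld (10, 12 and 5), Foxo3 (9, 10 and 2) and Cul9 (10, 5 and 5) likewise passed in none.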

How the data were processed

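The deposited protocol states that the authors counted consensus reads per gene on mm10 by htseq-count, with annotation release 85. The submitters' processing notes name STAR 2.5.0am, mm10 and GRCm38. The deposited gene values are raw counts, as are the values of consensus and full-length reads covering and holding each exonic part for 686 genes. The deposited fraction per part was recomputed here as a percent. Reads in no single gene (9.78%, 8.92% and 8.64%) stayed out of totals. Part starts, counted from 0 in the files, are printed counted from 1.

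RPM ratios were given exact conditional binomial 95% intervals, and shares exact Clopper-Pearson intervals. Intervals of differences between shares are Newcombe intervals. With 1 library per tissue no p-value across genes was computed. Parts with at least 20 full-length and 5 consensus reads in each library of a pair were tested by Fisher's exact test (two-sided) of full-length reads, Benjamini-Hochberg adjusted over all parts of the pair, and called at an adjusted p under 0.05 and 20 points. Medians used a pseudocount of 0.5. Calculations used Python 3.11.15 and scipy 1.17.1 and were tested on simulated data. Annotation and sequences are from GENCODE M21 (GRCm38).

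The family names, gene lists and tests were chosen with earlier results of these data known. Named were genes with at least 20 reads, genes or parts called, genes in the authors' part lists, a list of muscle-related members and pathway genes with at least 20 reads. The authors' phased structures were not analysed here, and a few genes that meet the naming rule are not reported here.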

Additional observations from a re-analysis of the deposited data

How the results depend on the processing

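Alternatives were other scalings, read minimums, the counting unit, a pseudocount and other part thresholds. No direction of a called result reversed under them, and the 3 medians stayed within their spread. Counts beyond 2-fold stayed at 0 except with full-length reads at each gene's best covered part, which called 4, 4 and 1 genes in the pairs cardiac and EDL, cardiac and soleus, and EDL and soleus, where 25.9%, 26.6% and 14.9% of all genes were called. Full-length reads count sequenced molecules, of which a consensus read can merge several, and the cause of the difference was not tested. The genes were Fbxo40, Klhl31, Ube4a and Usp47 between cardiac muscle and EDL. Between cardiac muscle and soleus they were Fbxo40, Herc1, Klhl31 and Usp47, and between EDL and soleus Herc1. With at least 20 reads in the pair, 2 genes were off equal between cardiac muscle and EDL, because fewer genes were tested. That was 2 of 16, against 22.4% of all genes tested. With consensus reads, 1 of 372 parts was called between cardiac muscle and EDL, against 1.30% of all parts. Between EDL and soleus 0 of 446 were called, against 0.160%, the Usp9x part being lost from both pairs. At 10 points, 4 of 372 and 2 of 446 parts were called in these pairs, against 2.35% and 0.623%, the Usp47 exon among them. Without the 10 most abundant genes in the total, the family share was 3.31%, 3.48% and 3.32% in cardiac muscle, EDL and soleus, and over genes with at least 20 reads 2.28%, 2.47% and 2.53%. No paired analysis was possible because each tissue has 1 library. At this depth 1 read is over 50.4 RPM, so small differences were not detectable.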
